A study of Mus musculus with 6 samples.

Results

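Creatine kinases, adenylate kinases and the enzymes that make creatine were examined in mouse hepatocytes made senescent by loss of Mdm2, the ubiquitin ligase that holds p53 down. The 9 genes are Ckmt1, Ckmt2, Ckb, Ckm, Ak1, Ak3, Ak4, Gatm and Gamt, out of 32061 genes in the count table. They were chosen by function and with their values in these same libraries in view, the senescent against healthy differences included. Their levels and fold changes are therefore given as a description. Where the fit over all genes called one of them, that is stated once as a count and is no test of that gene.

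RNA sequencing of polyadenylated RNA was available for 6 libraries of hepatocytes isolated by collagenase perfusion and a density gradient from mice 10 to 12 weeks old, 500 ng of total RNA per library. The 3 senescent libraries came from AhCre+Mdm2fl/fl mice and the 3 healthy libraries from AhCre- mice, and all 6 had received β-naphthoflavone by intraperitoneal injection at 20 mg/kg for 48 h. AhCre is a Cre recombinase under a promoter switched on by ligands of the aryl hydrocarbon receptor, such as β-naphthoflavone, so the agent itself is shared by both groups. The Mdm2 alleles of the healthy mice are not given in the labels used here, and the presence of Cre and the loss of Mdm2 cannot be told apart. No label says whether the libraries of a group came from separate mice, so p-values measure only the spread between these libraries, which may be technical. These are bulk samples, in which more cells of a type and more RNA per cell cannot be told apart.

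The libraries held 28799392 to 33267299 counts assigned to genes. A count of 0 allows up to 3 counts, which is 0.101 to 0.117 CPM (counts scaled to the library size) in the healthy and 0.0837 to 0.0874 CPM in the senescent libraries, for counting error only. Mdm2 itself stood at 19.0, 22.7 and 22.0 CPM in the healthy and at 465, 463 and 501 CPM in the senescent libraries, 4.49 ± 0.14 (SE) higher on the log2 scale. The gene-level count does not separate the floxed exons from the rest of the transcript, so it is no direct check of the deletion. Cdkn1a, a p53 target that blocks the cell cycle, went from 35.6 ± 17.0 to 717 ± 60.0 CPM (mean ± SD, n = 3 per group). Of 28 p53 target genes tested, 24 rose and 4 were not called in edgeR's quasi-likelihood test at an adjusted p of 0.05. Hepatocyte markers made up most of the signal of the marker lists in both groups, with sums of 141900 to 160600 CPM in the healthy and 84480 to 96380 CPM in the senescent libraries, and 7 of 10 fell.

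Phosphotransfer enzymes move the energy-rich phosphate of ATP between places in the cell. Creatine kinases pass it between ATP and creatine. Ckmt1 and Ckmt2 encode the mitochondrial enzymes, the first found in many tissues and the other in striated muscle, while Ckb and Ckm encode the cytosolic brain and muscle enzymes. Adenylate kinases interconvert ATP, ADP and AMP, with Ak1 in the cytosol and Ak3 and Ak4 in the mitochondrial matrix. Creatine is made in a pair of steps: Gatm, best known from kidney and pancreas, joins arginine and glycine to guanidinoacetate, and Gamt, abundant in liver, methylates it. Liver makes creatine for other organs, and hepatocytes are known for having little creatine kinase of their own.

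Sequence at the transcription starts is shown for the genes whose levels differ most between the groups, Ckmt1, Ak1 and Gamt, and for Ckb. RefSeq windows on GRCm38.p6 reach from 250 bases before to 50 bases after each annotated start, and 16 such windows matched all 9 genes. Ckmt1 has 2 windows on the plus strand, chr2:121357526-121357825 and chr2:121358360-121358659, and the second of the 4 Ak1 windows lies on the plus strand at chr2:32625187-32625486. Ckb lies on the minus strand at chr12:111672289-111672588 and Gamt on the minus strand at chr10:80260963-80261262. Each is printed 5′ to 3′ along the gene's strand. Capitals mark the letters TATAAA (as in a TATA box), CCAAT (as in a CCAAT box) and GGGCGG (as in a GC box) on either strand. A match at any place is marked, so capitals do not show a working box. The Ak1 windows that are not printed held none of these letters.
Ckmt1 window 1: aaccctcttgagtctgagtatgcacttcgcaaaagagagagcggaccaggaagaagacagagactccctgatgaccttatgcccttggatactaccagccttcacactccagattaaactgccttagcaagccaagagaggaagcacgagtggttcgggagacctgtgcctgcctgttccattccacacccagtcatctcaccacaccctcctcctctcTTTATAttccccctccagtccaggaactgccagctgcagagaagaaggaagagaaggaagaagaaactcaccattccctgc
Ckmt1 window 2: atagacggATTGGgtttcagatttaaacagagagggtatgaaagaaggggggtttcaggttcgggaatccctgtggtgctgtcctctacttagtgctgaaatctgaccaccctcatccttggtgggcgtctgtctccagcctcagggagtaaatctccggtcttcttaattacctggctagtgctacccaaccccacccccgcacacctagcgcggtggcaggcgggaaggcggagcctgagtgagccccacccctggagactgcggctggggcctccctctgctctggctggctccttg
Ak1 window 2: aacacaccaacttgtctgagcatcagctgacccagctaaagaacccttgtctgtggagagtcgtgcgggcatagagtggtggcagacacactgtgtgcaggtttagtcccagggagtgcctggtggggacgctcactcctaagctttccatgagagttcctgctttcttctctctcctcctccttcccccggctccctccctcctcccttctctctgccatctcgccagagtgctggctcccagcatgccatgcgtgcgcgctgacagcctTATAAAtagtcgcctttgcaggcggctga
Ckb: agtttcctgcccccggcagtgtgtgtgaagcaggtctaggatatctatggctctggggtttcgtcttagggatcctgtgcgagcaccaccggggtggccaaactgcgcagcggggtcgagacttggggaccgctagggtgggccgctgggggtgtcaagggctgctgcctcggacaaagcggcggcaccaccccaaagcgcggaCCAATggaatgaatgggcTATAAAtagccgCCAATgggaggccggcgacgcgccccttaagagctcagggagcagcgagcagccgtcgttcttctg
Gamt: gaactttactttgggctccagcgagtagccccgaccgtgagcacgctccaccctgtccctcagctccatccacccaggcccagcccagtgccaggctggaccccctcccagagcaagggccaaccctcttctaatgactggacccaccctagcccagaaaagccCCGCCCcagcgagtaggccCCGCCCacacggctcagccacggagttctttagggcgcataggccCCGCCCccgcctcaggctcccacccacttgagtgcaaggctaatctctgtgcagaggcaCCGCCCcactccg

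The windows differ in kind. TATAAA was present in 3 of the 16 windows against 13.6% of all 32851 RefSeq windows of 300 bases. It lay 28 bases before the start in Ckb, on the opposite strand 31 bases before the start in the first Ckmt1 window, and 22 bases after the start in the printed Ak1 window. Gamt had 4 GGGCGG matches, all on the opposite strand as printed, at positions -86, -67, -22 and 38 from the start, and no TATAAA match. Across the windows, GGGCGG was found in 7 of the 16 windows (35.7% of all windows), CCAAT in 7 (37.4%) and CACGTG, the E-box, in 1 (7.15%). The p53 half-site, a 10-letter decamer that is only a part of the p53 response element, had no match in the 16 windows, against 8.36% of all windows. The same search found 2 half-sites in a Cdkn1a window and 1 in the Mdm2 window. These counts describe letters in short windows and show neither binding nor its absence. The CpG content, as observed over expected CpG pairs, was 0.2 and 0.39 for the Ckmt1 windows, 0.41 for the printed Ak1 window and 0.47 for Gamt, with a median of 0.38 over all windows. The Ak1 windows that are not printed were poorer in CpG, at 0.26, 0.09 and 0.08. Ckb (0.75), Gatm (0.8) and the 4 Ak4 windows (0.67 to 0.93) were richer in CpG.

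Mitochondrial creatine kinase Ckmt1 was almost unread in healthy hepatocytes and well read in senescent ones. Ckmt1 (ENSMUSG00000000308, chromosome 2, 121357714 to 121363737, plus strand) had 0, 1 and 0 counts in healthy libraries 1, 2 and 3, and 1891, 2643 and 2346 counts in senescent libraries 1, 2 and 3. In normalised units these were at most 0.0389 CPM in the healthy and 52.8, 77.0 and 67.9 CPM in the senescent libraries (65.9 ± 12.3, SD, n = 3). Every senescent library lay above every healthy one, and senescent library 1 was the lowest of its group. With a single healthy count, the ratio of scaled counts was 5498, with a 95% counting interval from 986.5 to 217200, and the fitted log2 fold change was 12.01 ± 0.39 (SE), a value that depends on the prior count. Only 2 of the 12949 genes tested had a larger fitted fold change. That place also depends on the prior count, and the choice of genes had used this contrast, so nothing is read from it.

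Ak1, the cytosolic adenylate kinase, had the same form. Ak1 (ENSMUSG00000026817, chromosome 2, 32621758 to 32635058, plus strand) had 2, 0 and 0 counts in the healthy and 1148, 1302 and 1228 counts in the senescent libraries. In CPM the senescent libraries held 32.0, 38.0 and 35.6 (35.2 ± 2.98, SD, n = 3), and the highest healthy library 0.0674. The groups did not overlap, and the senescent libraries lay closer together than those of Ckmt1, with a coefficient of variation of 8.47% against 18.6%. The ratio of scaled counts was 1470 (95% counting interval 406.5 to 12140), and the fitted log2 fold change was 10.30 ± 0.36, the 16th largest of all tested genes. With 2 healthy counts, the fold and its place depend on the prior count as for Ckmt1, and nothing is read from the place.

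The other creatine kinases stayed low. Ckb, the brain-type cytosolic enzyme (ENSMUSG00000001270, chromosome 12, 111669361 to 111672338, minus strand), had 1.62, 1.48 and 0.460 CPM in the healthy and 5.02, 1.95 and 4.83 CPM in the senescent libraries. The lowest senescent library, number 2, lay just above the highest healthy one, and the log2 fold change was 1.73 ± 0.50. It was 1.55 without senescent library 1 and 1.61 without senescent library 3. Ckm, the muscle-type enzyme (ENSMUSG00000030399, chromosome 7, 19404776 to 19422841, plus strand), had 0 counts in the healthy libraries and 2, 3 and 5 in the senescent ones. With the healthy group as a whole set to 3 counts, the ratio was 2.66. That value leaves out the counting error of the few senescent counts, so it is no firm lower bound. Ckmt2, the striated muscle form of the mitochondrial enzyme (ENSMUSG00000021622, chromosome 13, 91853387 to 91876885, minus strand), had 0 counts in all 6 libraries. Ckm and Ckmt2 were too low to be tested. Of 12 muscle markers, 6 had 0 counts in every library (Myh1, Myh4, Myl1, Tnnc2, Cnn1 and Myh6), and the sum of the list was 0.778 to 1.25 CPM in the healthy and 0.492 to 0.670 CPM in the senescent libraries.

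Creatine synthesis differed in its final step. Gamt, the methyltransferase that completes creatine (ENSMUSG00000020150, chromosome 10, 80258151 to 80261012, minus strand), had 203, 165 and 181 CPM in the healthy and 37.1, 41.1 and 34.1 CPM in the senescent libraries. The groups were far apart relative to their spread, at 183 ± 19.1 against 37.4 ± 3.52 CPM (SD, n = 3 each), which is 4.90-fold lower in senescent hepatocytes (log2 fold change -2.29 ± 0.13). Gatm, the amidinotransferase of the first step (ENSMUSG00000027199, chromosome 2, 122594467 to 122611303, minus strand), had 3.94, 3.15 and 2.55 CPM in the healthy and 5.72, 3.24 and 5.99 CPM in the senescent libraries. Senescent library 2 fell within the healthy range, and the log2 fold change was 0.63 ± 0.28. Without senescent library 2 it was 0.91.

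The matrix adenylate kinases were slightly lower. Ak3 (ENSMUSG00000024782, chromosome 19, 29020833 to 29047961, minus strand), which uses GTP in place of ATP, had 333, 286 and 335 CPM in the healthy and 253, 262 and 244 CPM in the senescent libraries. All senescent libraries were below all healthy ones, with a log2 fold change of -0.33 ± 0.12. It was -0.41 without healthy library 2. Ak4 (ENSMUSG00000028527, chromosome 4, 101419277 to 101466995, plus strand) had 55.5, 70.7 and 71.5 CPM in the healthy and 55.2, 47.6 and 48.7 CPM in the senescent libraries. Healthy library 1 and senescent library 1 were nearly level, and the log2 fold change was -0.38 ± 0.13. It was -0.07 with a scaling by total counts, under which the median of all tested genes lay at 0.33 and not at 0.01. In that scaling Ak3 stood at -0.02 and Gamt at -1.99. The annotation places Cdc37l1, a chaperone cofactor gene, on the strand opposite Ak3 with an overlapping span, and it had 787 to 985 counts in the healthy and 1127 to 1255 in the senescent libraries. No source used here says whether the counting used strand, so reads in that overlap may be shared. Strc, on the strand opposite Ckmt1 with an overlapping span, had at most 1 count in any library.

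**Figure D1:**
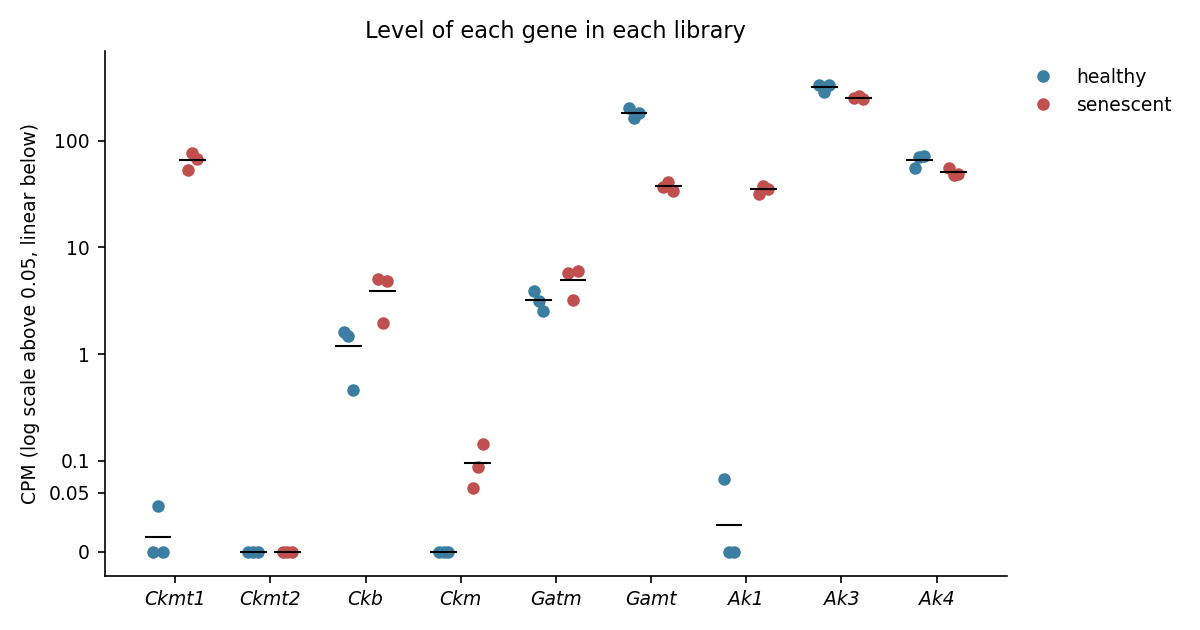
Normalised level of each of the 9 genes in each of 6 libraries (points, 3 healthy in blue and 3 senescent in red), in CPM on an axis that is logarithmic above 0.05 and linear below, with the group mean as a line. Ckmt1 and Ak1 go from at most 0.0674 CPM in any healthy library to at least 32.0 CPM in every senescent library, Gamt goes down, and Ak3 and Ak4 lie close together in both groups.

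Of the 9 genes, 7 passed the filter on low counts. Of these, 3 were called higher (Ckmt1, Ak1 and Ckb), beside 20.4% of all 12949 genes tested, and 2 were called lower (Gamt and Ak4), beside 20.7%, with 41.1% called in either direction. Among the 7, all senescent libraries lay above all healthy ones for 3, beside 26.8% of tested genes, and below them for 3, beside 27.2% (54.0% in either direction). The genes were chosen on this contrast, so these calls are no test and nothing is read from the shares. They also moved with the setting: Ak4, just inside the threshold, was not called in 10 of 14 other settings, and Ckb was not called without senescent library 1 or 3. Ak3 lay just outside it, and was called by DESeq2 and without healthy library 2, as Gatm was without senescent library 2 or with total counts.

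Levels of different genes can be set side by side only per length, here as CPM per kb of merged exons. In healthy hepatocytes the order was Gamt (127 ± 13.3), Ak3 (102 ± 8.95), Ak4 (14.2 ± 1.94), Gatm (1.07 ± 0.233), Ckb (0.409 ± 0.218), and then Ak1 and Ckmt1 at or below 0.00866. Only Ak1 and Ckmt1 were neighbours that could not be ordered beyond their spread. In senescent hepatocytes it was Ak3 (81.1 ± 2.76), Ckmt1 (26.4 ± 4.91), Gamt (25.9 ± 2.44), Ak1 (13.6 ± 1.15), Ak4 (10.9 ± 0.883), Gatm (1.66 ± 0.506) and Ckb (1.36 ± 0.594). Ckmt1 and Gamt did not differ beyond their spread, and neither did Gatm and Ckb. Among all tested genes, 0.363% lay below Ckmt1 by level per kb in the healthy and 89.2% in the senescent group. For Ak1 the same shares were 0.548% and 81.1%. Both genes passed the filter on low counts only through the senescent libraries, so a place near the bottom in the healthy group was fixed beforehand. Genes left out by the filter are not in these shares, and nothing is read from them.

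The make-up of each enzyme family moved with these levels. The creatine kinases together went from 0.415 ± 0.222 to 27.8 ± 4.45 CPM per kb, a description of levels that the choice of genes had used. In the healthy libraries Ckb gave 99.0 ± 1.71% of that sum and Ckmt1 0.987 ± 1.71%. In the senescent libraries Ckmt1 gave 92.3%, 97.8% and 94.1%, and Ckb 5.16 ± 2.77%. The 3 adenylate kinases Ak1, Ak3 and Ak4, which are not the whole family, summed to 116 ± 8.29 CPM per kb in the healthy and 106 ± 3.11 in the senescent libraries. Within that sum Ak3 gave 87.7 ± 2.10% in the healthy and 76.9 ± 0.387% in the senescent libraries, and Ak4 12.3 ± 2.11% and 10.3 ± 0.924%. Ak1 went from 0.00729% of the healthy sum to 11.7%, 13.5% and 13.4% in senescent libraries 1, 2 and 3. The groups of this 3-gene sum overlapped, at 107 to 123 CPM per kb in the healthy and 103 to 109 in the senescent libraries. RNA shares say nothing of the amounts of enzyme.

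**Figure D2:**
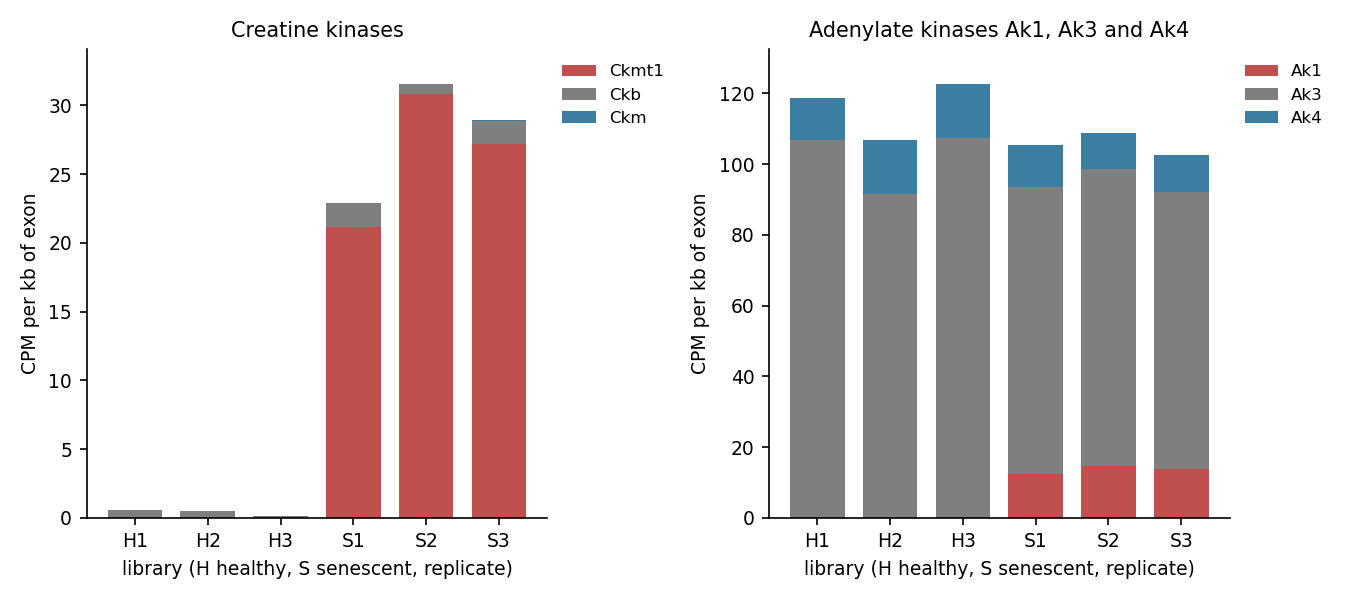
Stacked level, in CPM per kb of exon, of the creatine kinases (left) and of Ak1, Ak3 and Ak4 (right) in each library (H1 to H3 healthy, S1 to S3 senescent), with 1 colour per gene. Ckmt1 forms nearly all of the creatine kinase bar in the senescent libraries, and Ak1 appears as a band of 11.7% to 13.5% of the adenylate kinase bar in the senescent libraries alone.

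Further adenylate kinases outside the 9 genes were low. Ak6, a form of the nucleus, had 6.45 ± 0.544 CPM in the healthy and 7.10 ± 0.772 CPM in the senescent libraries (log2 fold change 0.14 ± 0.15, edgeR quasi-likelihood, adjusted p = 0.50). Ak7, known from cilia, had 0.287 and 0.363 CPM (0.33 ± 0.37, adjusted p = 0.49). Ak5, Ak8 and Ak9 were too low to be tested.

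Slc6a8, the plasma membrane transporter that takes up creatine, rose. It had 1.89, 3.27 and 2.76 CPM in the healthy and 18.3, 20.3 and 30.2 CPM in the senescent libraries. The groups did not overlap (log2 fold change 3.13 ± 0.26, edgeR quasi-likelihood, adjusted p = 6.36e-05), and the call held in all 14 other settings. Slc16a12, a transporter known to release creatine, was at 58.1 ± 9.71 CPM in the healthy and 59.0 ± 6.47 CPM in the senescent libraries, with a log2 fold change of 0.02 ± 0.15 (adjusted p = 0.92).

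The genes that supply arginine, glycine and methyl groups to creatine synthesis were mostly lower. Of 19 tested, 10 fell and 1 rose, with a median log2 fold change of -0.77 against 0.01 for all tested genes. Gnmt, the glycine methyltransferase that competes for the methyl donor, fell from 2032 ± 620 to 475 ± 72.7 CPM (log2 fold change -2.10 ± 0.24, adjusted p = 0.00035). Ahcy, which removes the S-adenosylhomocysteine that Gamt and other methyltransferases leave behind, fell from 2210 ± 410 to 558 ± 63.1 CPM (-1.99 ± 0.18, adjusted p = 0.000101). Mat2a, the methionine adenosyltransferase of non-liver cells and dividing hepatocytes, was the one that rose, from 47.0 ± 10.9 to 68.7 ± 0.484 CPM (0.55 ± 0.16, adjusted p = 0.026). Its call was lost in 6 of 14 other settings. Mat1a, its liver counterpart, and Bhmt were not called.

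Other nucleotide kinases went both ways. Of 16 tested, 3 rose and 4 fell, with a median log2 fold change of -0.13. Beside the 20.4% of all tested genes that rose and the 20.7% that fell, these counts, and those of the AMP-activated kinase, AMP breakdown and carrier lists described next, set no list apart. The largest rises were in mitochondrial enzymes. Nme4, the mitochondrial nucleoside diphosphate kinase, rose from 0.905 ± 0.438 to 16.1 ± 2.81 CPM (4.15 ± 0.32, adjusted p = 4.404e-05). Cmpk2, the mitochondrial UMP-CMP kinase, rose from 5.21 ± 1.31 to 73.5 ± 9.74 CPM (3.82 ± 0.21, adjusted p = 6.713e-06). Guk1, which phosphorylates GMP, fell from 23.9 ± 1.16 to 15.1 ± 1.66 CPM (adjusted p = 0.0033), and Uck2, a uridine-cytidine kinase, from 14.9 ± 0.204 to 10.6 ± 0.0564 CPM (adjusted p = 0.0084).

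AMP-activated kinase reads the AMP that adenylate kinases make. Of its 12 tested subunits and upstream factors, 2 rose and 4 fell, with a median log2 fold change of 0.03. Prkaa2, a catalytic subunit, rose from 44.0 ± 1.16 to 77.9 ± 8.28 CPM (0.82 ± 0.11, adjusted p = 0.00092). The regulatory γ subunits went in opposite directions. Prkag1 rose from 27.0 ± 1.83 to 54.8 ± 3.70 CPM (1.02 ± 0.11, adjusted p = 0.00026), while Prkag2 fell from 31.1 ± 3.34 to 16.7 ± 0.982 CPM (-0.90 ± 0.12, adjusted p = 0.00075). Cab39l, a scaffold of the upstream kinase complex, fell by 0.52 on the log2 scale (SE 0.11, adjusted p = 0.0070).

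Of 14 tested genes of AMP breakdown and purine salvage, 3 rose and 2 fell, with a median log2 fold change of 0.28. Ampd2, which deaminates AMP to IMP, rose from 34.7 ± 2.95 to 72.3 ± 18.3 CPM (1.06 ± 0.19, adjusted p = 0.0032), and Hprt, which salvages hypoxanthine and guanine, from 30.4 ± 2.16 to 60.7 ± 4.22 CPM (1.00 ± 0.11, adjusted p = 0.00032). Adssl1, which turns IMP back towards AMP, fell from 30.5 ± 1.88 to 16.6 ± 0.935 CPM (-0.88 ± 0.11, adjusted p = 0.00047). Pnp, the purine nucleoside phosphorylase, fell from 62.7 ± 4.17 to 43.3 ± 3.15 CPM (-0.53 ± 0.11, adjusted p = 0.0062).

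Of 11 tested carriers and pores for adenine nucleotides, 1 rose and 1 fell. The one that rose, Slc25a17, is known as a carrier of the peroxisome rather than of the mitochondrion, and it went from 45.3 ± 5.27 to 303 ± 24.7 CPM (2.74 ± 0.14, adjusted p = 4.18e-06). Slc25a23, a mitochondrial carrier that exchanges ATP-Mg for phosphate, fell from 396 ± 28.1 to 135 ± 21.8 CPM (-1.55 ± 0.15, adjusted p = 0.00013). The ADP/ATP exchanger Slc25a5 was not called (-0.16, adjusted p = 0.37). Genes of the ATP synthase list were lower as a group: 15 of 16 tested fell, with a median log2 fold change of -0.71. The gene not called was Atpif1, which encodes an inhibitor of the enzyme rather than a subunit (log2 fold change 0.12 ± 0.14). Atp5g1, of the membrane ring, fell from 184 ± 48.4 to 76.9 ± 5.68 CPM (-1.26 ± 0.19, adjusted p = 0.0012), and Atp5e, of the central stalk, from 133 ± 27.8 to 68.1 ± 5.13 CPM (-0.96 ± 0.16, adjusted p = 0.0023). Scaled by total counts, 8 of the 16 were called lower and 1 higher.

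**Figure D3:**
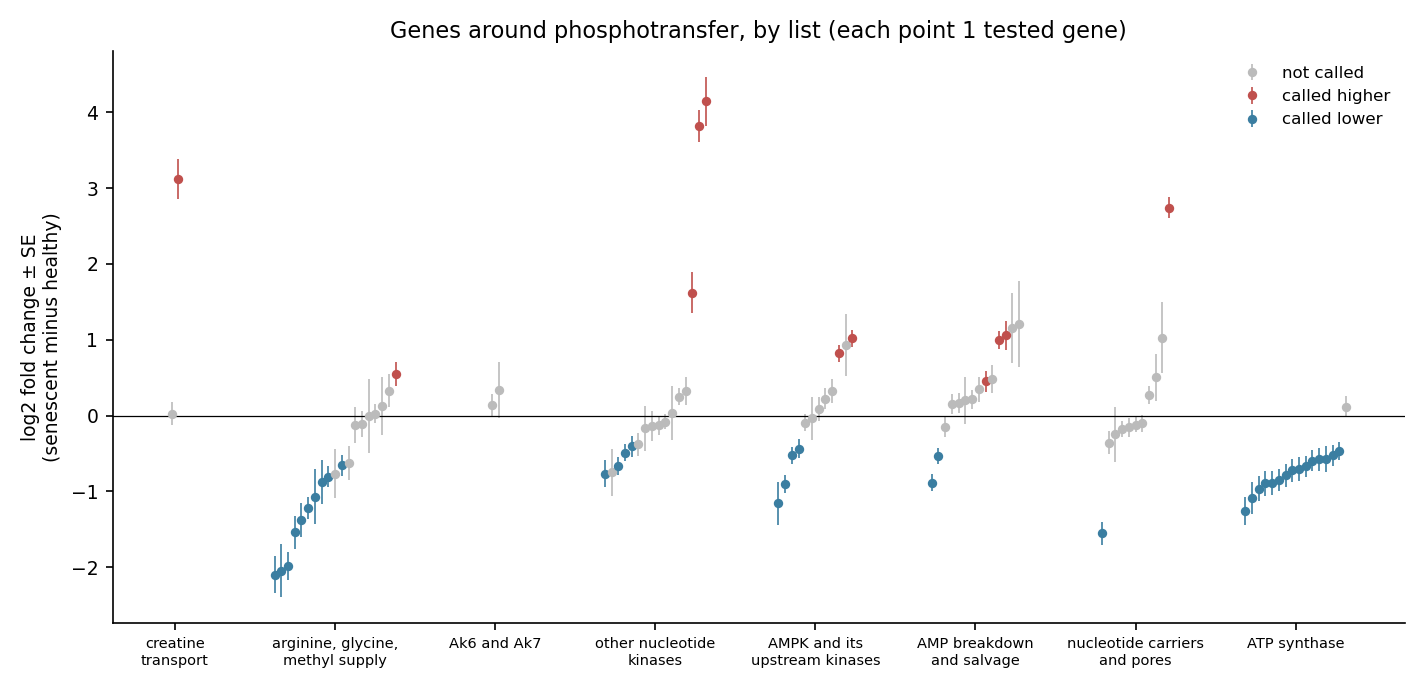
Log2 fold change, senescent minus healthy, with its SE, for each tested gene of 8 lists around phosphotransfer (red called higher, blue called lower, grey not called). Genes of the ATP synthase list lie below 0 except the inhibitor gene Atpif1, and the methyl and arginine supply genes lie mostly below 0. Slc6a8, Nme4, Cmpk2 and Slc25a17 stand far above their lists.

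The genes beside the 9 genes on their chromosomes did not share the largest differences. Of 54 tested neighbours, 3 on each side of each gene, 6 rose and 13 fell, beside 20.4% and 20.7% of all tested genes. Their median log2 fold change was -0.16. Around Ckmt1, 1 of 6 rose, Ell3, a transcription elongation factor gene 86.6 kb away by start, from 0.143 to 0.533 CPM (1.87 ± 0.44, adjusted p = 0.010). Ppip5k1, whose start lies 2.32 kb from that of Ckmt1, was not called (0.34 ± 0.25). Ckmt1 and Gatm lie on the same chromosome with a gap of 1.231 Mb. Around Ak1, St6galnac4, a sialyltransferase gene 34.7 kb away, rose from 1.26 to 6.14 CPM (2.28 ± 0.32, adjusted p = 0.00092), Fpgs fell from 193 to 130 CPM (-0.57 ± 0.18, adjusted p = 0.031), and the other 4 were not called.

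Around Gamt, Ndufs7, a subunit of respiratory complex I, fell from 65.2 to 42.4 CPM (-0.62 ± 0.13, adjusted p = 0.0070) and the other 5 were not called. Dazap1, whose start lies 0.474 kb from that of Gamt, had a log2 fold change of 0.23. The largest rise among all 54 was Ppp1r13l, an inhibitory p53-binding protein gene beside Ckm, from 3.90 to 31.4 CPM (3.01 ± 0.17, adjusted p = 6.945e-06). Ckm itself had at most 5 counts. Beside Ckb, Tnfaip2 fell from 25.0 to 9.55 CPM (-1.39, adjusted p = 0.00016). Other called neighbours included Mark4 and Cd3eap beside Ckm, Acot12 and Msh3 beside Ckmt2, Apopt1 beside Ckb, Gm10136, AC113961.1 and Rcl1 beside Ak3, Leprot beside Ak4, and Sord, Shf and Slc28a2 beside Gatm.

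**Figure D4:**
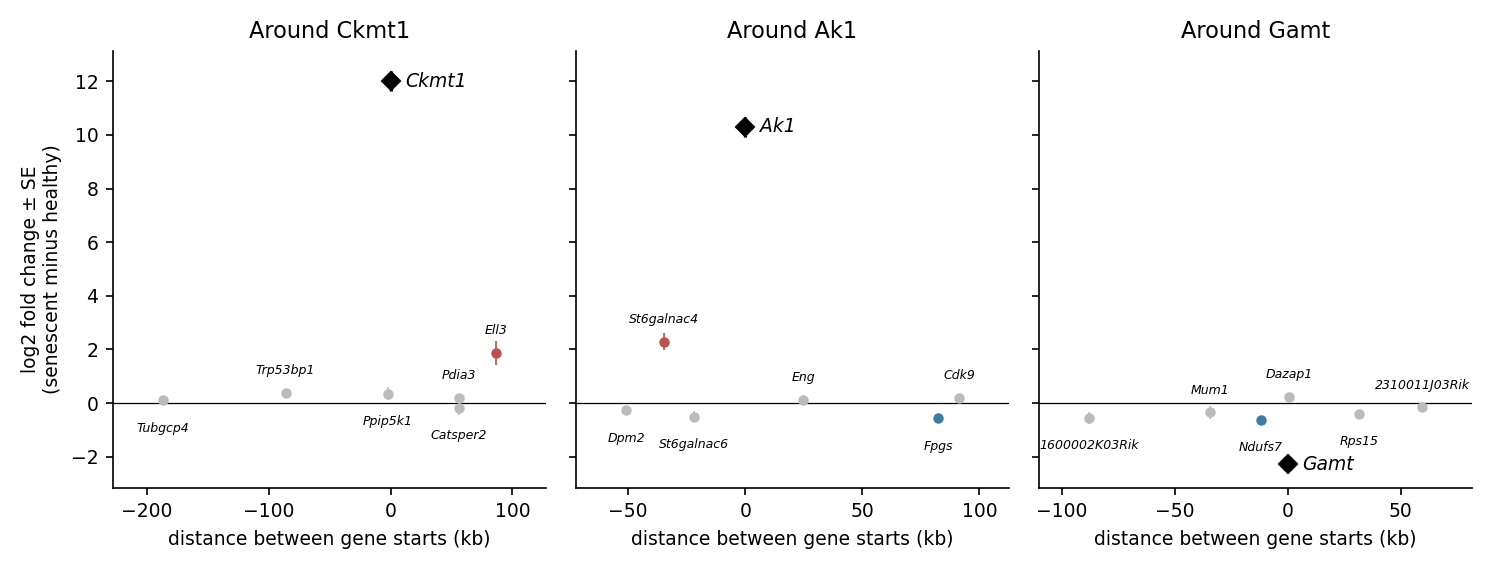
Log2 fold change with its SE for Ckmt1, Ak1 and Gamt (black diamonds) and the 3 nearest tested genes on each side (red called higher, blue called lower, grey not called), by distance between gene starts in kb. Ckmt1 at 12.01 and Ak1 at 10.30 stand alone in their neighbourhoods, and the largest difference among the neighbours drawn is 2.28, of St6galnac4.

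Some genes had nearly the profile of Ckmt1 and Ak1 over the 6 libraries. Likeness was measured as the Euclidean distance between profiles of log2(CPM + 0.5), each centred on its own mean. The 5 genes nearest to Ckmt1 were Inka2 (distance 0.34), Eda2r (0.39), Cpt1c (0.44), Gtse1 (0.46) and Psrc1 (0.53). Those nearest to Ak1 were Tnfrsf10b (0.31), Sec14l5 (0.31), Cox6b2 (0.32), Prrg4 (0.47) and Psrc1 (0.66). With 3 libraries a group, these distances mostly reflect the size of the difference between the groups. Of these 9 genes, Eda2r, Gtse1, Psrc1 and Tnfrsf10b are also in the list of p53 targets used above. That list was written with earlier results of these data known, and the 9 genes were picked by their difference between the groups. The overlap is therefore no test, and nothing is read from it.

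Markers of other liver cells differed between the libraries too. Of 12 macrophage markers tested, 2 were called higher (Cd68 and Vsig4), 6 by DESeq2 and 4 by limma-voom, and 0 lower. Their median log2 fold change was 0.90, against 0.01 for all tested genes. None had 0 counts throughout. The list summed to 224, 267 and 98.2 CPM in healthy libraries 1, 2 and 3 and to 377, 242 and 488 CPM in the senescent ones. Of 11 stellate cell and fibroblast markers tested, 6 rose, and the list summed to 12.2, 19.0 and 11.8 CPM in the healthy and to 28.5, 31.9 and 44.2 CPM in the senescent libraries. Healthy library 3 and, among the senescent ones, library 2 had the lowest macrophage sums of their groups, and the lowest Ckb and Gatm levels. Of 12 endothelial markers tested, 2 rose. Their sum was 158, 174 and 137 CPM in healthy libraries 1, 2 and 3 and 188, 163 and 212 CPM in the senescent ones. Of 5 cholangiocyte markers tested, 2 rose (Krt19 and Spp1) and 1 fell. The cholangiocyte list summed to 23.9, 22.1 and 15.5 CPM in the healthy and to 26.9, 19.9 and 22.7 CPM in the senescent libraries. Both sums were also lowest in healthy library 3 and senescent library 2, so this order was not particular to macrophages. Of 3 lymphocyte and neutrophil markers tested, 2 rose (S100a8, adjusted p = 0.014, and S100a9, adjusted p = 0.0069). That list summed to 5.66, 3.54 and 1.94 CPM in the healthy and to 8.34, 6.50 and 10.6 CPM in the senescent libraries, without overlap, and was likewise lowest in healthy library 3 and senescent library 2. Senescent library 2 had the highest Ckmt1 and Ak1 levels of its group and the lowest macrophage sum, an order of 3 libraries only. The part of any of these cells in the Ckb, Gatm, Ckmt1 and Ak1 values was not tested.

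**Figure D5:**
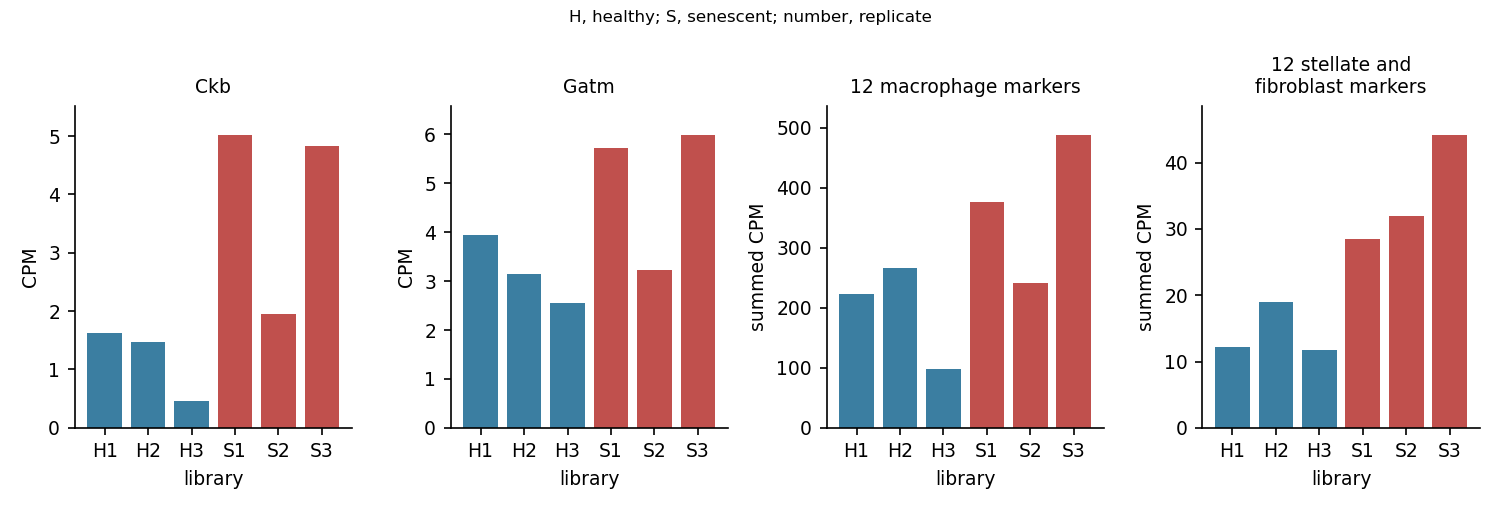
Level of Ckb and Gatm (CPM) and summed level of 12 macrophage and 12 stellate cell and fibroblast markers (summed CPM) in each library (H healthy, S senescent, bars from 0). Ckb, Gatm and the macrophage sum are each lowest in healthy library 3 among the healthy and in senescent library 2 among the senescent libraries, while the stellate cell sum is lowest in senescent library 1. The endothelial, cholangiocyte, and lymphocyte and neutrophil sums, not drawn, were lowest in the same libraries as the macrophage sum.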

How the data were processed

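Reads were trimmed, aligned and counted by the authors with cutadapt 1.16, STAR 2.7.1a, featureCounts and the GRCm38 build, with FastQC, MultiQC 1.3 and DESeq2 1.34.0 also named, per the submitters' processing notes. The annotation release and the strand setting were not given in the sources used here. The deposited values are raw counts per gene. The column VGR07B was taken as healthy replicate 2, whose label reads VGF07B. Counts were scaled by TMM and tested on all 6 libraries with edgeR 4.0.16 (quasi-likelihood, R 4.3.3) after filterByExpr (minimum count 10, total 15), with Benjamini-Hochberg adjustment over 12949 genes and a threshold of 0.05. The code was tested on simulated data. Per-kb levels used merged exons of the annotation, and IDs of 31976 genes matched a symbol. Members and lists were chosen with earlier results of these data known. Named were all members, the 2 higher and 2 lower calls of each list with the smallest p, all genes of the short lists, called neighbours, and the 5 genes nearest in pattern, leaving out predicted and pseudogene names. Slc25a5, Mat1a, Bhmt, Ppip5k1 and Dazap1 were named after their values were seen. Some genes that this rule names are not reported here, and shares of adenylate kinase RNA are over the 3 members only. DESeq2 1.42.0, limma-voom (limma 3.58.1), other filters, scalings and a threshold of 0.01, a replicate block and leaving out each library were alternatives.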

Additional observations from a re-analysis of the deposited data

How the results depend on the processing

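No alternative reversed a called direction. The sign of Slc16a12, which was not called, turned between -0.12 and 0.33. For single genes, 607 of the values under alternatives stayed on their side of the threshold, 99 lost a call and 4 gained one. Scaling by total counts gave 4861 genes higher and 1285 lower in place of 2644 and 2680, with the median gene at 0.33 in place of 0.01. A threshold of 0.01 gave 1570 and 1498. Leaving out each library in turn gave 1836 to 2691 higher and 1489 to 2789 lower, the fewest lower without senescent library 3. Of the 9 genes, 2 were called lower, and 1 with a mean of at least 1 CPM, no filter, total counts or a threshold of 0.01, and 1 to 2 without a library. Ak4 lost its call without any library but healthy 1, and Ak3 gained one without healthy library 2. Replicate numbers are shared by the groups, but deviations of same-numbered libraries correlated at 0.25, -0.205 and 0.025 over 12949 genes, so the numbers were not taken as pairs. With a replicate block, 2576 genes were higher and 2625 lower, and 1 of the 9 was lower (Ak4 lost).

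Scaled by total counts, the calls higher and lower were 5 and 1 for other nucleotide kinases, 5 and 2 for AMP-activated kinase, 9 and 1 for AMP breakdown, and 19 and 3 for neighbours. They were 2 higher for arginine and methyl supply, 3 higher for carriers, and 1 higher and 8 lower for ATP synthase. At 0.01 there were 0 higher for methyl supply (Mat2a lost, 1 at an unadjusted p under 0.05 in edgeR and 1 by DESeq2 at 0.05), 2 lower for AMP-activated kinase, and 3 higher and 5 lower neighbours. Leaving out each library gave 2 to 4 lower other nucleotide kinases and 1 to 4 lower for AMP-activated kinase (fewest without senescent library 3), 0 to 1 higher for methyl supply (1 without healthy library 3 alone), 2 to 5 higher for AMP breakdown (5 without healthy library 1), 1 to 2 lower carriers (2 without healthy library 3), 10 to 15 lower ATP synthase subunits and 4 to 14 lower neighbours (8 without healthy library 2 or senescent library 1, 7 and 4 without senescent libraries 2 and 3). With CPM not divided by length, the healthy and senescent shares among the 3 adenylate kinases were 82.8% and 74.7% for Ak3 and 17.2% and 14.9% for Ak4, and the senescent share of Ak1 was 10.4%. The single healthy count of Ckmt1 and the 2 of Ak1 limit their folds, whose log2 values ran from 11.30 to 14.06 and from 9.78 to 13.12.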
